A study of Mus musculus with 20 samples.

Results

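Strong m6A peaks shared by all libraries of a set from mouse embryonic stem cells are described here. They are the regions of chromatin-associated RNA where every one of 10 immunoprecipitated libraries held a peak of 8-fold enrichment or more. N6-methyladenosine (m6A) is an abundant internal mark on messenger RNA. It is written in the nucleus by a complex whose catalytic subunit is Mettl3, at adenosines in a short consensus whose core is GGAC, and it is read in the nucleus by Ythdc1. In mammalian messenger RNA it is known to lie mostly in long internal exons and around stop codons, and to be scarce near splice junctions.

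Merging the peaks of all 10 libraries per strand gave 87551 regions. Of these, 15847 held a peak in every library and 1213 held a peak of 8-fold or more in every library. The 1213 members are 1.39% of all regions and 7.65% of the regions shared by all libraries. The other 14634 shared regions serve below as the comparison. The members were chosen by the fold enrichment that the authors' peak caller gave each peak over the background of its own library. Their folds are therefore given as a description, with no test. The rule includes the Mettl3 knockout libraries, so a strong region that fell below 8-fold there is not a member. Members made up 15.5% to 23.8% of the regions at 8-fold or more in a library. Single folds reached 38.4 in the other shared regions, against 34.4 in members. Whether the members carry m6A written by Mettl3 was not tested.

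In embryonic stem cells of C57BL/6 mice, RNA of the chromatin fraction was freed of ribosomal RNA, fragmented and enriched for m6A with an antibody. All groups were cultured in serum with the cytokine LIF and the kinase inhibitors CHIR99021 (against GSK3) and PD0325901 (against MEK). The 5 groups held 2 libraries each and were named Mettl3 KO1 and Mettl3 KO2, the Mettl3 control of both, Ythdc1 cKO, and the Ythdc1 control. How each gene was removed, whether KO1 and KO2 are single clones, and whether both libraries of a group stem from separate cultures is not in the labels, so spreads within a group may be technical. The 10 input samples were not analysed here. The lists held 40980 to 46761 peaks, and read depth is unknown. A peak list holds no transcript amounts, so it cannot show whether the RNA of Mettl3 or Ythdc1 itself was lost. All 8 stem cell markers looked up, Pou5f1, Sox2 and Nanog among them, held a region shared by all libraries, and none held a member. Of 5 fibroblast markers only Pdgfrb held a shared region, none of the 3 endoderm markers did, and of the neural markers Nes did, which also held a member in its long coding exon.

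The member summits of several leading genes lay within 50 nt of a consensus core, and those of others did not. The sites below belong to exonic members with some of the highest lowest folds over the 10 libraries, and show the transcript beneath a summit that was strong in every library. Each is 29 nt of the transcript, 5′ to 3′, from the GENCODE M21 transcript sequences, in mm10 coordinates. The capitals mark the core nearest the summit, GGAC where it was present within 50 nt of the summit and GAAC otherwise.
Usp35 (coding exon, chr7:97312212-97312240, minus strand): ataggcactggtGGACggagtgggcagga
Elk4 (coding exon, chr1:132018300-132018328, plus strand): tttgccagaaaaGGACaaaacaaataact
Kank1 (coding exon, chr19:25411335-25411363, plus strand): gagtcgggtgtgGGACagataaatattca
Pik3ca (coding exon, chr3:32462831-32462859, plus strand): agatgggagctgGGACtgcgagctggctc
Gmeb2 (3' UTR, chr2:181253691-181253719, minus strand): agaggccactacGGACacaggccacaggg
Foxo3 (coding exon, chr10:42196560-42196588, minus strand): catctccacacaGAACgttgttggtttga
Rad54b (3' UTR, chr4:11584014-11584042, plus strand): atgttaaaagagGAACaccagataatttt

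Counted along the transcript from the summit, the A of the core lay at -1 in Usp35, 9 in Elk4, 23 in Kank1, 28 in Pik3ca and 27 in Gmeb2. It lay at 14 in Foxo3 and at 28 in Rad54b, which had no GGAC in the window. The leading members Cep97 and Sox4 are not shown. They had no GGAC in the window either, and the A of an AAAC lay at 49 and 31. Ankrd24, also not shown, had no such core. A core near a summit is a match of letters and does not show which adenosine is methylated.

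Most members lay in coding exons. Of the 1213 members, 662 (54.6%; Wilson 95% interval 51.8 to 57.4) had the summit of their strongest peak in a coding exon, against 32.2% (31.4 to 32.9) of the other shared regions and 16.04% of all regions. A further 221 (18.2%; 16.1 to 20.5) lay in a 3' UTR, against 14.9% (14.3 to 15.5) of the other shared regions. Introns held 150 members (12.4%; 10.6 to 14.3), against 30.6% (29.9 to 31.4) of the other shared regions. The 5' UTR held 16 (1.32%; 0.814 to 2.13), against 4.96% (4.62 to 5.32). Members thus made up 3.24% of the shared regions in introns and 2.16% of those in 5' UTRs, against 12.3% in coding exons. Non-coding exons held 34 members, 29 lay antisense to a gene, 14 within 2000 bp upstream of a gene start on either strand, and 86 between genes. The last of the 1213 was on the methylation kit's own control RNA, which had been mixed into every sample. These intervals cover counting error only, and regions are not replicates of a condition.

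The share of intron regions was lower in each higher range of peak heights, while that of coding exons was higher only from 4-fold on. Shared regions whose lowest fold was under 3 lay in coding exons in 29.8% of cases and in introns in 40.6% (n = 4066). From 3 to under 4 the shares were 28.4% and 32.4% (n = 3908), and from 4 to under 6 they were 32.9% and 25.7% (n = 4701). From 6 to under 8 the coding exon share was 42.8% and the intron share 18.2% (n = 1959). From 8 to under 10 the shares were 54.4% and 13.3% (n = 802), and at 10 or more they were 55.0% and 10.5% (n = 411). The coding exon share thus differed little between members just past 8 and those past 10, while 5' UTR regions made up 1.46% at 10 or more, against 7.01% under 3.

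**Figure D1:**
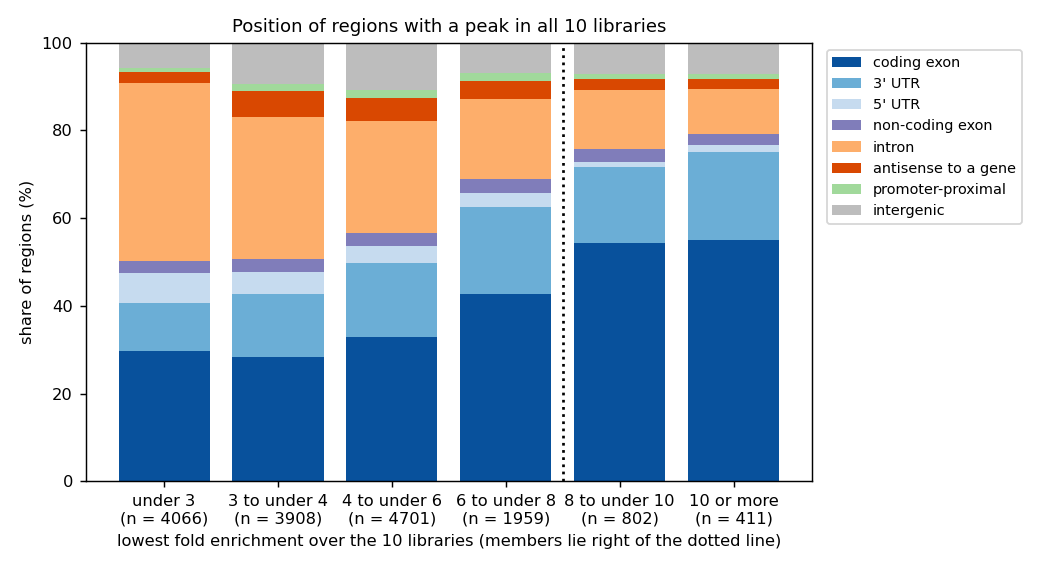
Position of the summit of regions with a peak in all 10 libraries, by the lowest fold over the libraries (x axis, fold bins with their number of regions) as a share of the regions in each bin (y axis, percent). Coding exons take 29.8% of the regions under 3-fold and 55.0% of those at 10-fold or more, and introns take 40.6% and 10.5%.

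Within coding sequence, the members lay in exceptionally long exons. Of the 355 members in an internal coding exon, 345 (97.2%; Wilson 95% interval 94.9 to 98.5) lay in an exon of 400 nt or more, against 61.9% (59.97 to 63.7) of the 2580 other shared regions in internal coding exons. In the annotation 2.27% of 162895 internal coding exons are that long. The exon that held the summit had a median length of 889 nt in members (quartiles 627 and 1469.5), against 516 nt in the other shared regions (267 and 873.25) and 123 nt in the annotation. Read the other way, the share of members among the shared regions was 0.246% (0.0435 to 1.38) in internal coding exons under 200 nt, 1.53% (0.807 to 2.88) from 200 to under 400 nt, 13.8% (11.8 to 16.05) from 400 to under 800 nt, 22.1% (19.01 to 25.5) from 800 to under 1600 nt and 21.8% (17.6 to 26.6) at 1600 nt or more. The summits lay at a median of 268 nt from the nearer exon edge in members, against 158 nt in the others. Longer exons allow larger distances, and depth relative to exon length was not tested. Region width was larger too, with a median of 1130 bp in members and 652 bp in the other shared regions, and its part was not tested.

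**Figure D2:**
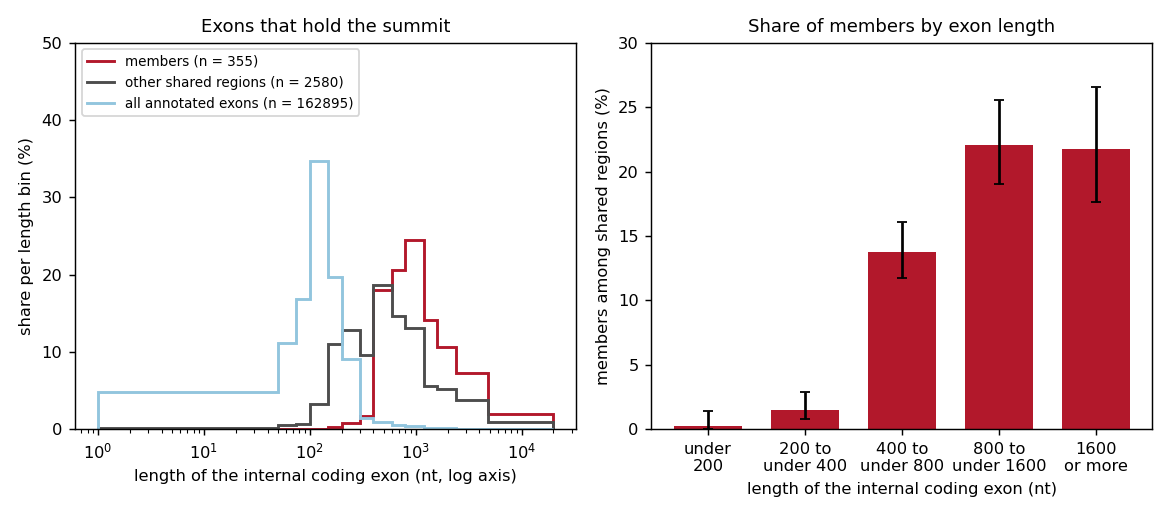
Left, lengths of the internal coding exons (x axis, nt, log axis) that hold the summit of members, of other shared regions, and of all annotated internal coding exons, as the share per length bin (y axis, percent). Right, members as a share of shared regions in each range of exon length (y axis, percent, bars with Wilson 95% intervals), at 0.246% under 200 nt and 22.1% from 800 to under 1600 nt.

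The members in short internal coding exons were few enough to name, and were chosen here for that reason after their values were seen. A region of Baz1a, which encodes a chromatin remodelling subunit, had its summit in the shortest exon, of 167 nt, with a lowest fold of 8.84. Zeb1, a repressor of epithelial genes, followed with an exon of 201 nt and a lowest fold of 10.6. Ogdh, an enzyme of the citric acid cycle, had one of 248 nt. The others were Slc35b3, Cyld, 4930452B06Rik, Ints6, Snx29, Msl1 and Senp6, with exons of 288 to 388 nt. In Zeb1, Ogdh and Slc35b3 the exon was the gene's second, and the summits lay 109, 77 and 70 nt past the start codon.

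Last exons held more members than internal ones did, and the other shared regions had the same order. Of the 933 exonic members, 468 (50.2%) lay in a last exon and 365 (39.1%) in an internal one, against 46.9% and 34.1% of the others. A gene of a single exon held 51 (5.47%), against 4.77% of the others. An opening exon held 49 (5.25%; Wilson 95% interval 3.995 to 6.88), where the other shared regions had 14.2% (13.4 to 14.9). Last exons were long too, at a median of 2585.5 nt against 1930 nt in the others. Of the 899 members in exons of coding transcripts, 312 (34.7%; 31.7 to 37.9) had their summit within 400 nt of the stop codon, against 37.4% (36.3 to 38.5) of the others, and the intervals overlap. A majority, 507 (56.4%), lay more than 400 nt upstream of the stop codon, as did 53.6% of the others. Near the start codon members were rarer: 33 (3.67%; 2.63 to 5.11) lay within 200 nt of it, against 15.5% (14.7 to 16.4) of the others. Within 200 nt of the transcript start there were 13 (1.39%; 0.816 to 2.37), against 7.95% (7.38 to 8.56).

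GGAC was more frequent at member summits than at those of the other shared regions. Within 50 nt of the summit, on the strand of the transcript, 568 of 933 exonic members (60.9%; Wilson 95% interval 57.7 to 64.0) held GGAC, against 51.5% (50.4 to 52.6) of the 8028 others. In windows shifted by 500 nt along the same transcripts the shares were 34.6% (32.4 to 36.9) for members and 33.6% (32.8 to 34.4) for the others. GGACT, a longer form that contains GGAC, stood at 24.1% (21.5 to 27.0) of member summits, against 19.2% (18.3 to 20.05) of the others. AGAC stood at 53.9% and 44.9%, GAAC at 43.2% and 39.9%, and AAAC at 35.4% and 32.5%. One of these 4 cores lay within the window of 902 members (96.7%), against 91.8% of the others. CAGG, which is GGAC read backwards and has the same base composition, showed no such gap, with 51.9% (48.7 to 55.1) of members and 51.8% (50.7 to 52.9) of the others. GAAGAA was rarer in members, at 7.93% (6.36 to 9.84) against 11.6% (10.9 to 12.3). The G and C content of the windows had a median of 52.5% in members and 53.5% in the others.

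The excess of GGAC was widest from 100 nt before the summit to 49 nt past it. In the 50 nt from the summit onwards members had 10.3 GGAC starts per kb, against 7.49 in the other shared regions. From 51 to 100 nt before the summit the values were 8.72 and 6.54. They were closer from 50 to 99 nt past the summit, at 6.60 and 6.34, and from 100 to 149 nt past it, at 6.15 and 5.53. From 200 to 249 nt past it they were 4.43 and 4.10. The share with GGAC was 62.4% in member summits of coding exons and 57.5% in those of 3' UTRs, against 50.6% and 55.2% in the others. Of these 2 classes coding exons had the wider gap, and in 3' UTRs the Wilson intervals overlap (50.9 to 63.8 in members, 53.1 to 57.3 in the others).

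**Figure D3:**
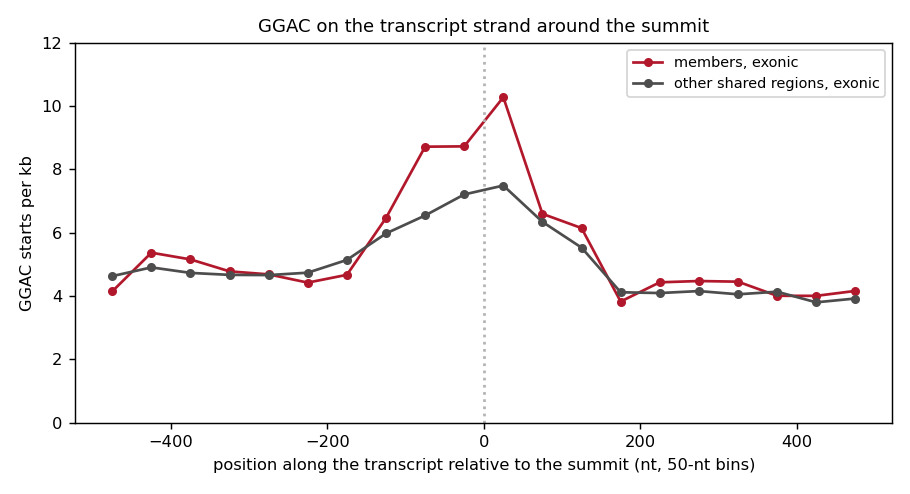
GGAC starts per kb of transcript (y axis) in 50-nt bins around the summit (x axis, nt along the transcript) for exonic members and for exonic regions of the other shared set. Members reach 10.3 per kb just past the summit, against 7.49 in the others, and both sets lie near 4 per kb beyond 200 nt downstream.

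The leading members carried high folds in every library. Rerg, which encodes a small GTPase related to RAS, held the member with the highest lowest fold, in a 97879 nt intron (chr6:137143051-137143828, minus strand, mm10), 27084 nt from the gene start. Its folds were 30.7 and 27.3 in KO1 and 27.6 and 25.6 in KO2, beside 24.8 and 23.2 in the Mettl3 control, 21.8 and 22.1 in the cKO, and 20.8 and 21.5 in the Ythdc1 control. The 4 Mettl3 knockout libraries lay above both of their controls, and so did the cKO libraries by a small margin. Here and for the genes below, such calls only describe folds that chose the members and share no scale between libraries. By rank, 15.4% of all shared regions stood higher and 15.3% lower in every Mettl3 knockout library than in both controls. For the cKO these shares were 29.4% and 29.6%.

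Foxo3, a forkhead transcription factor held in check by PI3 kinase and AKT, followed with a coding exon region (chr10:42196443-42197984, minus strand) in an exon of 1436 nt. Its folds were 18.1 and 22.8 in KO1 and 20.996 and 21.3 in KO2, beside 20.2 and 19.3 in the Mettl3 control, 23.1 and 20.1 in the cKO, and 19.5 and 20.2 in the Ythdc1 control, with KO1 on both sides of its controls, KO2 above both of them, and the cKO overlapping its own. Pik3ca, the catalytic subunit of PI3 kinase itself, held a member whose summit lay 14 nt before the stop codon, in a last exon of 5926 nt. Its folds were 16.9 and 18.4 in KO1 and 22.7 and 22.9 in KO2, beside 22.9 and 21.4 in the Mettl3 control, 16.8 and 18.4 in the cKO, and 25.1 and 26.8 in the Ythdc1 control. KO1 lay below both controls while KO2 overlapped them, and the cKO lay below both Ythdc1 controls.

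Usp35, a deubiquitinase, held a member in an internal exon of 1273 nt (chr7:97311784-97312432, minus strand). Its folds were 33.5 and 28.4 in KO1 and 28.5 and 25.5 in KO2, beside 29.2 and 28.2 in the Mettl3 control, 20.04 and 21.7 in the cKO, and 16.9 and 22.4 in the Ythdc1 control. All libraries of the Mettl3 experiment stood above all libraries of the Ythdc1 experiment, and within each experiment the groups overlapped. Elk4, an ETS factor that works with the serum response factor, had 22.6 and 23.8 in KO1 and 24.1 and 22.2 in KO2, beside 17.9 and 22.5 in the Mettl3 control, 19.1 and 19.1 in the cKO, and 16.7 and 17.9 in the Ythdc1 control. There the cKO lay above both of its controls and KO1 above both Mettl3 controls, while KO2 overlapped them. Sox4, a transcription factor of the SOX family encoded by a single exon, had its summit 33 nt past the stop codon. Its folds were 23.5 and 22.0 in KO1 and 30.2 and 19.5 in KO2, beside 23.6 and 19.5 in the Mettl3 control, 16.1 and 17.4 in the cKO, and 25.9 and 20.8 in the Ythdc1 control, so that the cKO lay below both controls.

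The other leading members were Gmeb2, a regulator of glucocorticoid responses, Cep97, a centrosomal protein, Kank1, an adaptor of the cell cortex, and the ankyrin repeat gene Ankrd24. Gmeb2 had its summit 51 nt past the stop codon, with folds of 17.2 to 23.1 over the 10 libraries. Cep97, Kank1 and Ankrd24 had theirs in internal exons of 775, 2679 and 1377 nt, with folds of 16.3 to 24.4, 16.3 to 20.6 and 16.1 to 21.9. Ankrd24 had none of the 4 cores within 50 nt of its summit.

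**Figure D4:**
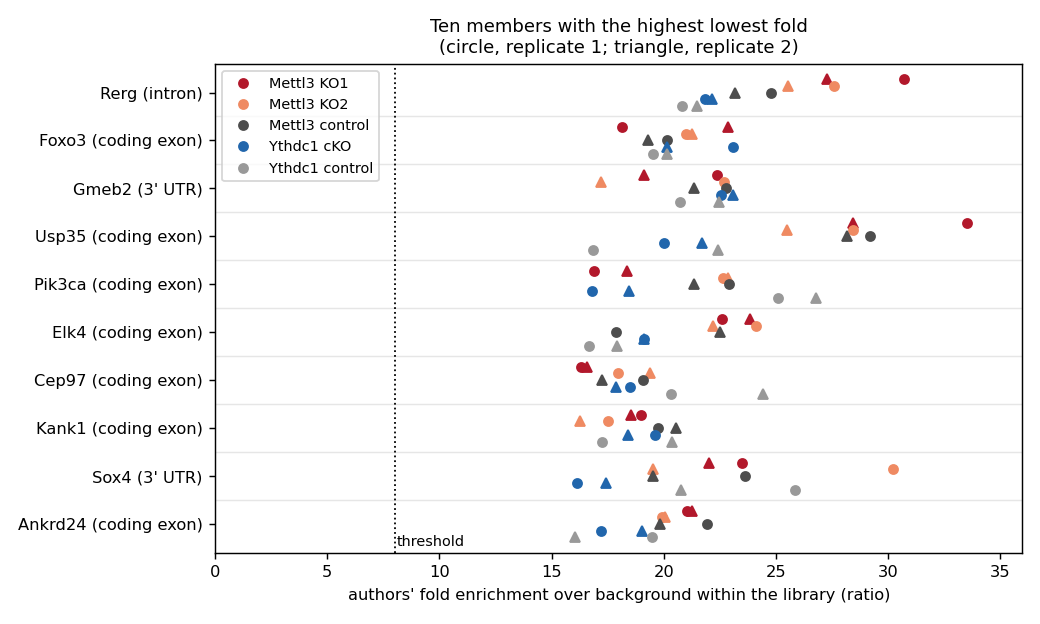
The authors' fold enrichment (x axis, ratio) of the 10 members with the highest lowest fold (rows) in each of the 10 libraries, coloured by group, with a circle for replicate 1 and a triangle for replicate 2. Every point lies right of the dotted threshold of 8, between 16.1 and 33.5.

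Members reached a strong fold in other classes too. In 5' UTRs the leading ones were Ctnnd1, which encodes p120-catenin, at 13.9-fold to 27.0-fold with the summit 40 nt from the transcript start, the sialyltransferase gene St3gal2 at 13.8-fold to 19.4-fold in a 5' UTR exon of 1293 nt, and Caskin2 at 11.8-fold to 23.2-fold. In introns Pid1 and Frmd4b followed Rerg, at 14.2-fold to 28.8-fold and 13.1-fold to 23.6-fold. Intron members were not close to gene starts, at a median distance of 31012 nt, against 27238 nt in the other shared intron regions. In 3' UTRs, beside Gmeb2 and Sox4, a short transcript of the DNA repair gene Rad54b had 15.5-fold to 23.0-fold. The leading non-coding exons were those of the processed pseudogenes Gm20796, Gm6125 and Gm13034, at 11.5-fold or more. Reads of a pseudogene and of its parent gene may not be told apart, so these are uncertain. Antisense to a gene, regions opposite B230209E15Rik, Akap12 and Rif1 had 11.5-fold to 20.7-fold. Upstream of genes, regions by Gm48360, Atad2b and 2010008C14Rik had 10.9-fold to 25.2-fold.

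Many of the members between genes, though not most, lay in a zinc finger gene cluster. Of 86 such members, 33 lay on chromosome 2 and 29 of these between 174 and 178 Mb, where the annotation holds a run of zinc finger genes such as Zfp965 and Zfp966. All classes together gave 33 members there, of 178 shared regions. How many of the other shared intergenic regions lay there is not given here. The leading intergenic members lay 509 nt past the end of Gm14288 (chr2:175785527-175789009, minus strand, 15.8-fold to 24.1-fold), 501 nt past Gm14440 (14.4-fold to 23.7-fold) and 78 nt past Gm14435 (13.6-fold to 23.3-fold). Of the 86, 42 lay within 5000 nt past the end of a gene on the same strand, and 40 lay inside the span of a RefSeq gene. Genes of such clusters are often close copies of each other, so reads may have been shared among them, and the members there may not be independent.

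The members touched 1007 genes, 13.9% of the 7229 genes with a region shared by all libraries. Protein-coding genes made up 959 of the 1007. Most had 1 member: 61 genes had 2, 6 had 3 and only Igf1r, the receptor for insulin-like growth factor 1, had 4. Its strongest (chr7:68003712-68004532, plus strand, lowest fold 14.6) lay in its exon 2, of 546 nt, and the others in its last exon of 7649 nt, with the summit 109 nt before the stop codon in one (lowest fold 12.7) and 4512 and 5409 nt past it in the remaining pair (8.56 and 9.20). Zbtb10, a BTB zinc finger repressor, had 3 members, in its exons 1, 2 and 6, of 9.39-fold, 12.9-fold and 14.9-fold or more. Hivep1, a large zinc finger protein, had 3 in its exons 4, 8 and 9, the longest of 5939 nt. Celsr1, a cadherin of planar cell polarity, had 3, of which 2 lay in its last exon. Akap9, Dnmbp and Zcchc14 had 3 each.

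Zinc finger genes made up a visible part of the members. Of 295 numbered zinc finger genes with a shared region, 63 (21.4%) held a member, beside 13.9% of all such genes. The strongest were Zfp1 (14.6-fold or more in every library, last exon of 1521 nt), Zfp318 (14.5-fold, internal exon of 1452 nt), Zfp62 (12.4-fold, last exon of 3753 nt) and Zfp839 (12.2-fold). Of 37 BTB zinc finger genes with a shared region, a family added after its members had been seen among the leading ones, 15 (40.5%) held a member, with Zbtb24, Zbtb18 and Zbtb10 at 15.7-fold, 15.0-fold and 14.9-fold or more. The kelch-like genes, added likewise, held members in 3 of 17, namely Klhl9, Klhl24 and Klhl25. Genes with a member had a median of 2 shared regions, against 1 in the other genes with a shared region. A gene with more shared regions has more chances to hold a member, and the shares of the gene lists were not adjusted for this.

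Genes of genome maintenance and ubiquitin removal were also above the share of all genes, on small counts and again with no adjustment for shared regions per gene. DNA repair genes held members in 8 of 26 (30.8%). The strongest were Pms2, a mismatch repair endonuclease subunit (14.4-fold or more in every library, internal exon of 853 nt), Trp53bp1, which binds chromatin at double-strand breaks (11.97-fold, exon of 505 nt), Mlh3, a mismatch repair protein (10.4-fold, exon of 3323 nt), and Ercc4, a repair nuclease subunit (9.38-fold, exon of 601 nt). Ubiquitin-specific protease genes held members in 10 of 37 (27.0%), led by Usp35 at 16.9-fold or more, Usp42 at 11.7-fold, Usp16 at 10.5-fold and Usp36 at 9.75-fold. The median over genes of the highest lowest fold was 6.13 in the DNA repair list and 5.80 in the ubiquitin-specific protease list, against 4.79 over all genes. The rule used this same lowest fold, so the medians describe the lists and add no support to the shares.

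Chromatin genes lay near the share of all genes. Remodelers and bromodomain proteins held members in 6 of 33 (18.2%): Brwd3, with a bromodomain, at 13.5-fold or more in its last exon of 6755 nt, the chromodomain helicases Chd9, Chd7 and Chd2 at 11.0-fold, 10.6-fold and 8.90-fold, and Arid2 and Baz1a. Histone lysine methyltransferases and demethylases held members in 5 of 32 (15.6%), namely Setd1b at 10.4-fold or more, Kdm4b at 9.23-fold, Kmt2c at 8.81-fold, Kdm6b at 8.50-fold and Kmt2e.

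Several gene groups with shared regions held no member inside their GENCODE genes. A member classed as intergenic (chr3:107324740-107326440, minus strand, lowest fold 8.31) lay 390 nt past the end of the m6A writer complex gene Rbm15. It lay inside the RefSeq span of that gene, and is not counted for it here. The m6A writers, readers and erasers had 0 of 17, nuclear RNA decay genes 0 of 11, SR and hnRNP splicing factor genes 0 of 25, ribosomal protein genes 0 of 15 and histone genes 0 of 14. The median over genes of the highest lowest fold was 4.69 for the m6A genes and 5.20 for the decay genes, near the 4.79 of all genes, but 2.74 for the splicing factors, 2.08 for the ribosomal proteins and 1.70 for the histones. These medians too rest on the fold that the rule used, and are a description only. Of 13 nuclear long non-coding RNAs only Tug1 held a member (10.7-fold or more in every library).

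The summits of the strongest peak in all 10 libraries lay within 100 nt of their median in 789 members (65.0%; Wilson 95% interval 62.3 to 67.7), against 60.2% (59.4 to 61.0) of the other shared regions, while 779 members (64.2%; 61.5 to 66.9) had exactly 1 peak per library, against 74.7% (74.03 to 75.4) of the others. The widest members spanned long exons with several peaks: Eppk1, which encodes a giant cytolinker, over 10411 bp in a last exon of 11245 nt, and Stard9, a mitotic kinesin gene, over 10172 bp in an internal exon of 9837 nt. There the strongest peak could differ between libraries. The narrowest were a 200 bp region on the pseudogene Gm17771 and one of 204 bp on chromosome 2. The median width of member peaks was 729 and 746 bp in KO1 and 768 and 761 bp in KO2, beside 839 and 882 bp in the Mettl3 control, 963 and 950 bp in the cKO, and 892 and 859 bp in the Ythdc1 control. The 4 Mettl3 knockout libraries had narrower member peaks than both controls, the cKO libraries wider ones than theirs, and the other shared regions had 370 to 405 bp in the Mettl3 knockouts, 440 and 460.5 bp in the Mettl3 control, 454 and 455 bp in the cKO, and 470 and 452 bp in the Ythdc1 control.

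Folds of members varied moderately among libraries. The highest library stood a median of 1.76 times above the lowest (quartiles 1.56 and 2.01). The median fold of the members was 11.99 and 11.8 in KO1 and 12.5 and 12.8 in KO2, beside 13.7 and 13.0 in the Mettl3 control, 13.07 and 13.1 in the cKO, and 12.5 and 13.2 in the Ythdc1 control. On the log2 scale, the replicates of a group differed by a median of 0.13 to 0.19 per member in either direction, and the mean of the Mettl3 knockouts lay 0.13 below that of their controls at the median member (log2 difference -0.13, quartiles -0.29 and 0.06). The same difference was -0.20 in the other shared regions. For cKO minus control it was 0.02 in members and -0.03 in the others. Folds in different libraries carry no common scale, so these values stand side by side only. Members also had to reach 8-fold in every knockout library, and regions that fell below it there are among the others. The gap between members and others therefore depends on the choice, and no effect is read from it. Across the 1213 members, Spearman's rho of the folds was 0.60 to 0.69 for the 5 pairs of libraries of a group and 0.14 to 0.45 for the 40 pairs across groups; the points share gene sequence and the same choice by fold.

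Ranks within a library allow a comparison over lists of equal length, here the 15847 shared regions. In 178 members (14.7%) all 4 Mettl3 knockout libraries ranked the region lower than both controls, beside 15.3% of all shared regions, and in 167 (13.8%) they ranked it higher, beside 15.4%. Both cKO libraries ranked 340 members (28.03%) lower than both Ythdc1 controls, beside 29.6%, and 369 (30.4%) higher, beside 29.4%. These shares are near those of all shared regions, and since the folds chose the members nothing more is read from them.

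Some members nevertheless differed widely between groups, and the following were chosen after their values were seen, among the widest rank differences. An intron region of M1ap, a meiosis gene (chr6:82960503-82961140, plus strand), had 15.9 and 19.4 in KO1 and 25.2 and 25.3 in KO2, against 8.17 and 8.61 in the Mettl3 control. An intron region of the pseudogene Gm7435 had the same pair of control folds as deposited, with 15.8 and 14.3 in KO1 and 13.98 and 19.8 in KO2. Senp6, a SUMO protease gene, had 9.15 and 8.95 in KO1 and 8.24 and 8.94 in KO2, against 13.9 and 18.3 in the Mettl3 control. A region between genes on chromosome 11 (chr11:88010406-88010903, minus strand) had 8.33 and 9.54 in the cKO, against 17.6 and 20.3 in the Ythdc1 control. A region of Tnrc18, a trinucleotide repeat gene, had 8.53 and 9.29 in the cKO, against 18.7 and 16.2 in the Ythdc1 control. Other members were higher in the cKO. An intron region of the lincRNA gene Gm40849 had 18.98 and 18.4 in the cKO, against 10.1 and 8.99 in the Ythdc1 control, and a region between genes on chromosome 4 (chr4:35645953-35646291, minus strand) had 12.5 and 18.5 in the cKO, against 8.23 and 8.56 in the Ythdc1 control. All of these were taken from members whose groups did not overlap in rank, so the lack of overlap is part of the choice and not a finding.

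Whether strong regions stay strong without the writer or the reader can be asked only of libraries that took no part in the choice. A fold of 8 or more in all 4 libraries of the Ythdc1 experiment chose 3126 regions without use of the Mettl3 libraries. Of these, 61.7% and 60.3% reached 8-fold in KO1 and 67.1% and 69.7% in KO2, against 82.3% and 79.8% in the Mettl3 control. The mean was 64.7% ± 4.45 in the knockouts (SD, n = 4) and 81.0% ± 1.83 in the controls (SD, n = 2), a difference of -16.4 percentage points. The groups did not overlap, and the two-sided exact permutation p over the 15 splits was 0.0667, the smallest that many splits can give, which is above 0.05. The 4 knockout libraries come from 2 lines and are treated as exchangeable. The share of all peaks at 8-fold or more in each list was 13.1% and 12.7% in KO1 and 15.6% and 16.3% in KO2, against 17.5% and 15.4% in the controls. KO1 thus lay below both controls and KO2 overlapped them, and the part of this share in the difference was not tested. In bulk cultures, fewer cells with a strong peak and a weaker peak in every cell cannot be told apart.

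A fold of 8 or more in all 6 libraries of the Mettl3 experiment chose 1975 regions, of which 78.5% and 79.8% reached 8-fold in the cKO, against 74.2% and 76.9% in the Ythdc1 control. The means were 79.1% ± 0.931 in the cKO and 75.6% ± 1.90 in the control (SD, n = 2 each), a difference of 3.57 percentage points. The exact permutation p over the 6 splits was 0.333, two-sided, the smallest possible. The direction depended on how strong was defined: with the top 5% of each library's own list in place of 8-fold, the difference was -0.52 percentage points.

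**Figure D5:**
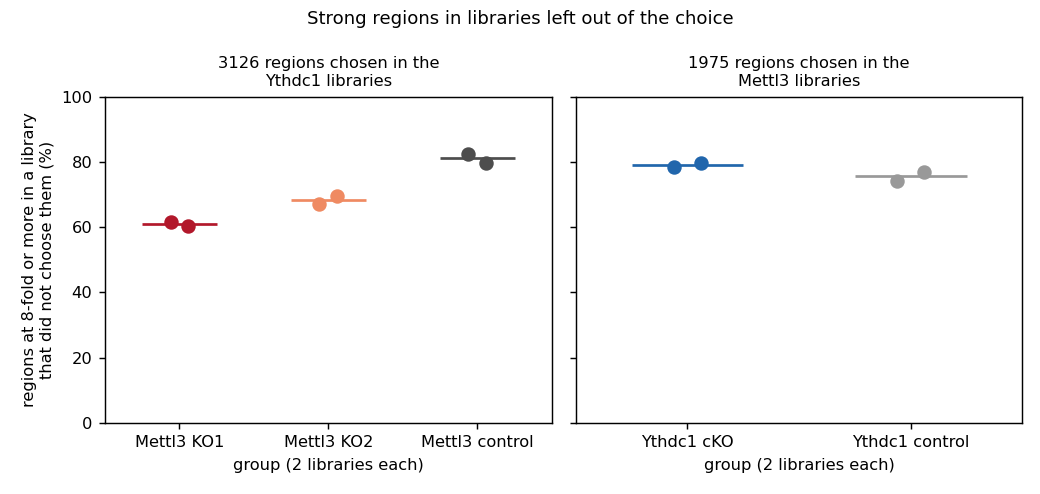
Regions chosen as strong in the libraries of one experiment, and the share of them (y axis, percent) that reached 8-fold in each library of the other experiment (points, with the group mean as a line). The 4 Mettl3 knockout libraries lie between 60.3% and 69.7%, below both controls, and the cKO libraries at 78.5% and 79.8%, above both of theirs.

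The threshold of 8 divides a continuum. Just inside it were Smg1, a kinase of nonsense-mediated decay, the intron member of AW554918 and Mtcl1, a microtubule protein, all with a lowest fold of 8.01 or less and a highest of 14.5 to 17.7. Just outside it were 9130019O22Rik, an intron region of Def6 and one of Brca2, with lowest folds of 7.994 to 7.997 and highest folds of 14.1 to 19.5.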

How the data were processed

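The 10 peak lists of m6A immunoprecipitations were grouped, 2 per group, by the labels' titles. The authors used HISAT2 2.1.0, MACS2, Trimmomatic 0.38 and CASAVA with the mm10 build, per the submitters' processing notes. The version of MACS2, its settings and its control libraries are not given in the sources used here. Each list holds the authors' display score per peak, which was not used for any result. It also holds the authors' fold enrichment (a ratio) over background, and the deposited −log10 of the p-value and q-value, of which the lowest −log10 q was 2.00. The deposited summit offset places each peak's highest point. The lists hold no read counts, so the depth and its precision are unknown.

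Peaks were merged per strand at 1 bp of overlap, and a region took its highest fold in each library. Summits of the strongest peak were classed by the basic transcripts of GENCODE M21, whose assembly GRCm38 is that of mm10. On the summit's own strand a 3' UTR took precedence over a coding exon, that over a 5' UTR, then non-coding exons and introns. Antisense, promoter-proximal and intergenic positions came last. Motifs were searched on the transcript strand only, in transcript sequences. Shares carry Wilson 95% intervals. The members' folds chose them, so tests were run only on regions chosen in one experiment and read in the other, with exact permutation tests over libraries. Python 3.11.15, pandas 2.3.3, numpy 2.4.6, scipy 1.17.1, statsmodels 0.14.6 and matplotlib 3.10.9 were used, and the code was tested on simulated data.

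The members and gene lists were chosen with earlier results of these data known. Genes were named by their lowest fold over the libraries: the 10 highest, the 3 highest of each class, up to 4 per gene list, genes with several members, the 3 regions on each side of the threshold, and the widest and narrowest. The remaining named genes are given as chosen after their values were seen, or complete a short list. Alternatives were other thresholds, overlaps, windows and left-out libraries. The result of 1 further gene list is not reported here.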

Additional observations from a re-analysis of the deposited data

How the results depend on the processing

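The number of members was set by the rule: 3172 regions passed at 6-fold, 411 at 10-fold and 1912 when 9 of the 10 libraries had to reach 8-fold. At 6-fold, 47.3% lay in coding exons and 15.98% in introns, and at 10-fold 10.5% lay in introns. Within 200 nt of the stop codon, in place of 400 nt, lay 22.6% of members in coding transcripts. GGAC was found in 38.2% of exonic members within 25 nt of the summit and in 81.8% within 100 nt. Leaving out 1 library at a time gave 1237 to 1325 members, with 53.4% to 55.2% in coding exons, 17.9% to 18.9% in 3' UTRs, 11.6% to 13.5% in introns, 34.5% to 35.6% within 400 nt of the stop codon and 60.3% to 61.7% with GGAC. Over all results, 95 alternatives kept a share within its interval, the number of members near its main value, or the direction of a difference. A further 9 moved the value and 1 turned the direction. The number of members has no interval, and for the differences between groups only a turn of direction could be seen. Leaving out 1 library loosens the rule, so those sets largely repeat the same members and their shares could hardly move. They are counted among the 95 and say little about stability.

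For regions chosen in the other experiment, the difference of Mettl3 knockout minus control was -15.9 percentage points at 6-fold, -17.6 at 10-fold, -11.8 with the top 5% of each list, and -18.02 to -14.9 without 1 library. For the Ythdc1 experiment, cKO minus control was 2.23 to 4.91 without 1 library and -0.521 with the top 5% of each list; the cause was not tested. None of these p-values could pass 0.05 in designs of this size, so they say nothing about stability. A replicate block changes only the splits, so the differences of -16.4 and 3.57 were the same by construction. The exact permutation p was 0.111 for the first (the smallest of 9 splits). It was 0.5 for the second (exact permutation, the smallest of 4 splits). Both are counted above among the alternatives that kept the direction, though they could not change it. Same-numbered libraries deviated together with correlations of only 0.00491 to 0.0355 over 15847 regions. A batch that moved all regions alike would not be seen this way, so whether they shared a culture or day remains unknown. Peak lists limit these results in 2 ways: a fold is relative to its own library, and read depth behind each peak is unknown.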

Other observations

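Among the members antisense to genes and upstream of genes, 3 lay around Flg, an epidermal barrier gene, all on the strand opposite to its transcript. Their folds ran over 8.14 to 16.2 (chr3:93292353-93293422), 8.72 to 20.9 (chr3:93277978-93279109) and 9.81 to 21.3 (chr3:93285595-93289339). Flg is made of near-identical repeats, and how reads were placed among them is not known. The regions were singled out after their values were seen.

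The control RNA of the methylation kit was the only member outside the mouse chromosomes. Its folds were 12.5 and 12.3 in KO1 and 22.5 and 23.3 in KO2, beside 18.2 and 11.1 in the Mettl3 control, 14.6 and 14.1 in the cKO, and 17.4 and 17.98 in the Ythdc1 control. KO1 and KO2 lay on different sides of the first Mettl3 control library, and the replicates of the Mettl3 control differed more than those of any other group. The same RNA was mixed into every sample per the labels' protocols, and whether its fold tracks the folds of the other members was not tested.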
